A study of Mus musculus with 12 samples.

Results

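The 39 Hox genes of the mouse that the RefSeq annotation lists lie in 4 clusters, Hoxa, Hoxb, Hoxc and Hoxd, and 36 of them had a probe on the array used here. They were taken by symbol: every probe that was no control spot, whose RefSeq accession belongs to a gene named Hox, a cluster letter from a to d and a paralogue number. These 36 genes carried 46 probes, among 31758 genes or unnamed accessions on the array. Hoxc4, Hoxc6 and Hoxc11 were not analysed here. The samples are total RNA of mouse cells in 3 groups with 4 arrays each. The mESC group is embryonic stem cells, and the others are cells after 9 and 14 days of differentiation (day 9 and day 14). The design text calls the later groups cardiomyocyte differentiation and compares them with the stem cells. The labels give all samples the same culture text: plates coated with crosslinked ELP (an elastin-like polypeptide, an engineered polymer built on the repeats of elastin), a stem cell medium without LIF, then Glasgow minimum essential medium with a low share of serum replacement, non-essential amino acids and beta-mercaptoethanol. LIF is the cytokine that keeps mouse stem cells undifferentiated. The cell line, and how the mESC samples differed in culture from the others, are not given in the sources used here, and no agent, allele or transgene is named.

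Hox genes encode homeodomain transcription factors that give cells their position along the head-to-tail axis. Genes at the 3' end of a cluster (low paralogue numbers) are switched on first and reach furthest forward in the embryo, and those at the 5' end (high numbers) come on later and further back. In stem cells Polycomb complexes keep the clusters silent. Retinoic acid, Wnt and the Cdx factors open them, and Pbx and Meis proteins bind DNA together with Hox proteins. In the heart, Hox genes of low number mark the posterior second heart field, which is exposed to retinoic acid, while mesenchyme and fibroblasts keep a Hox pattern of the place they came from.

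On each array the Cy3 brightness of a probe measures its gene's RNA. A level below is the log2 signal of the gene's probe relative to the 75th percentile of its array, so levels of different genes are not compared with each other. A change is a log2 fold change ± SE between groups of 4 arrays, fitted with limma over 20875 genes. Genes are described as rising or falling only where the Benjamini-Hochberg adjusted p was under 0.05 and the log2 change reached 1, which is 2-fold. Where none of a group's arrays read the probe well above background, the change is also given as "at least N-fold": the mean of the bright group against, on each dim array, the dimmest signal well above background or the probe's own signal, whichever is higher. The 75th percentile of signal lay between 345.9 and 386.2 for mESC, between 395.1 and 438.4 for day 9, and between 463.4 and 507.7 for day 14. Within a group, arrays had a correlation of at least 0.9893 across genes, which are not independent replicates. Separate cultures are not stated in the labels, and p-values therefore measure only the spread between these samples, possibly a technical one. Slides and scans were not shared between groups, so slide, scan and group cannot be told apart. In bulk RNA, fewer cells of a type and less RNA per cell cannot be told apart either.

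Marker lists checked the labels. The 5 pluripotency genes fell in both comparisons with mESC, and their summed level was 211.9 to 226.6 times the 75th percentile in mESC, 2.54 to 3.68 at day 9 and 1.30 to 1.61 at day 14. The 5 cardiomyocyte genes rose in both, with sums of 3.54 to 4.07, 156.9 to 291.1 and 149.8 to 193. The differentiated groups also held other cells' markers. Of 10 fibroblast genes 9 rose and 1, Thy1, fell at both days. The sum of the 10 went from 2.71 to 2.84 in mESC to 239 to 419.5 at day 9 and 537.6 to 593.1 at day 14. Of these 10, Col3a1, Dcn, Lum, Postn and Prrx1 were not well above background on any mESC array. Of 10 gut and liver genes 8 rose at day 9 and 7 at day 14. Of 9 lateral plate and visceral mesenchyme genes 8 rose and 1 fell at day 9, and 7 rose at day 14. Macrophage and blood genes summed to 1.08 to 2.08 at day 9 and 14.4 to 18.2 at day 14, against 0.63 to 0.65 in mESC. Not all 9 moved alike: 3 rose and 2 fell at day 9, and 6 rose and 2 fell at day 14. Paraxial mesoderm genes were mixed: among 9 tested, 4 rose and 3 fell at day 9, and 4 rose and 2 fell at day 14. Among 7 tested genes of hindbrain and spinal neurons, 2 rose at day 9, 4 rose at day 14 and none fell. Forebrain and midbrain genes, 5 tested, had 2 rises and 3 falls at day 9, and 1 rise and 3 falls at day 14. The part of any of these cells in the Hox changes was not tested.

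The regions in front of 5 Hox genes are shown as examples of genes called at both days for which a sequence was given: Hoxb1, Hoxb4, Hoxb8 and Hoxa2 rose, and Hoxd13 fell. They are not the genes with the largest changes, and not all such genes with a sequence. Each sequence is the 250 bases before the RefSeq start of transcription, 5′ to 3′ on the gene's own strand, in build GRCm38.p6. The array's own annotation refers to an older build and was not used for positions. Hoxb1 is chr11:96365508-96365757, Hoxb4 is chr11:96318017-96318266 and Hoxb8 is chr11:96281655-96281904, all on the plus strand. Hoxa2 is chr6:52164832-52165081 on the minus strand, and Hoxd13 is chr2:74667975-74668224 on the plus strand. Capitals mark matches, on either strand, to 5 short motifs: AGNTCA (the element that retinoic acid receptors bind in pairs), TTTATG (bound by Cdx factors), TGATNNAT (bound by Hox and Pbx together), TGACAG (bound by Meis) and TATAAA (the TATA box). Adjacent or overlapping matches run together.
Hoxb1: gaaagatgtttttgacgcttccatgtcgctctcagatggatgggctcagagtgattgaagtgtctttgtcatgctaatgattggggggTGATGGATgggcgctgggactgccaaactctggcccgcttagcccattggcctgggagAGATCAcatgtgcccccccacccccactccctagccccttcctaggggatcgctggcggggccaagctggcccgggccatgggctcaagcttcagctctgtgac
Hoxb4: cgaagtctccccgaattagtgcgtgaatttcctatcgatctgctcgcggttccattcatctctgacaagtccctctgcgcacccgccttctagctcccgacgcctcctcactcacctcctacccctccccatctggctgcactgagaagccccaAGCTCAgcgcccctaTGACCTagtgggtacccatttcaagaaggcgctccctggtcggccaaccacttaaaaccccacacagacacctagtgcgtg
Hoxb8: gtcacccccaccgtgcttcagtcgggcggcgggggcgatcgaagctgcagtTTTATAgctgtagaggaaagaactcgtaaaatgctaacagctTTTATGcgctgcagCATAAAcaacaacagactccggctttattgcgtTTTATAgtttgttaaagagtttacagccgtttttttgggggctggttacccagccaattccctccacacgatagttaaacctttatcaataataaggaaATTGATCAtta
Hoxa2: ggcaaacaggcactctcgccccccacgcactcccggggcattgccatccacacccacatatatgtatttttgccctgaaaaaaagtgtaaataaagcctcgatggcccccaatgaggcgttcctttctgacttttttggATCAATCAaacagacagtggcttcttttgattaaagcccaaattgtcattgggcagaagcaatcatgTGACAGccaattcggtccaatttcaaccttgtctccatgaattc
Hoxd13: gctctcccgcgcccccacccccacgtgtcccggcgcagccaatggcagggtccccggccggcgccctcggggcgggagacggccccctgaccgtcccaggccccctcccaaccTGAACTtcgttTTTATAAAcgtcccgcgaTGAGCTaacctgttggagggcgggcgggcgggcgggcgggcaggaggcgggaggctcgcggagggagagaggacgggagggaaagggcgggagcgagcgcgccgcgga

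Promoter sequences were matched for 21 of the 36 genes, and Hoxa10 and Hoxd11 had 2 starts, which gave 23 regions. They include no Hoxc gene, and of Hoxb only Hoxb1, Hoxb4 and Hoxb8. The shares below therefore describe mostly Hoxa and Hoxd, without the Hox genes of the largest rises and falls. In the Hoxb1 region, 1 match to the Hox-Pbx motif and 1 receptor element were found. Such a Hox-Pbx site in front of Hoxb1 is known from studies of hindbrain, where the Hoxb1 protein maintains its own gene. Hoxb4 held 2 receptor elements, and Hoxa2 held 1 Hox-Pbx and 1 Meis match. Hoxb8 held 2 Cdx-type matches, 2 TATA boxes and 1 Hox-Pbx match, and Hoxd13 held 2 TATA boxes, on opposite strands of 1 stretch, and 2 receptor elements. Other genes called at both days held fewer matches. Hoxa5, Hoxa11 and Hoxd1 had no match to any of these motifs, and Hoxa9 held 1 receptor element. Over all 23 Hox regions, the receptor element was in 9 (39.1%, against 41.3% of 32851 regions in front of all genes). The Cdx motif was in 5 (21.7% against 10.8%), the Hox-Pbx motif in 4 (17.4% against 7.68%), the Meis motif in 2 (8.7% against 15.9%) and the TATA box in 4 (17.4% against 12.4%). These shares describe letters in a short window and were not tested. The Hox regions had a median G+C content of 58% against 52.4% over all regions. Their median ratio of observed to expected CpG was 0.75 against 0.37.

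In mESC, 24 of the 36 genes were above background on all 4 arrays and 10 on none, by any of their probes. At day 9 these counts were 27 and 6, and at day 14 they were 28 and 3. Of the 36 genes 34 were tested, each with a probe that 3 or more arrays of some group read well above background. Hoxc8 and Hoxd3 were not tested. Hoxd3 was below background on all 12 arrays, with levels from −7.23 to −6.09, and Hoxc8 was above it on 0, 1 and 2 arrays in mESC, at day 9 and at day 14. A level in a gene below background is not read as expression.

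**Figure D1:**
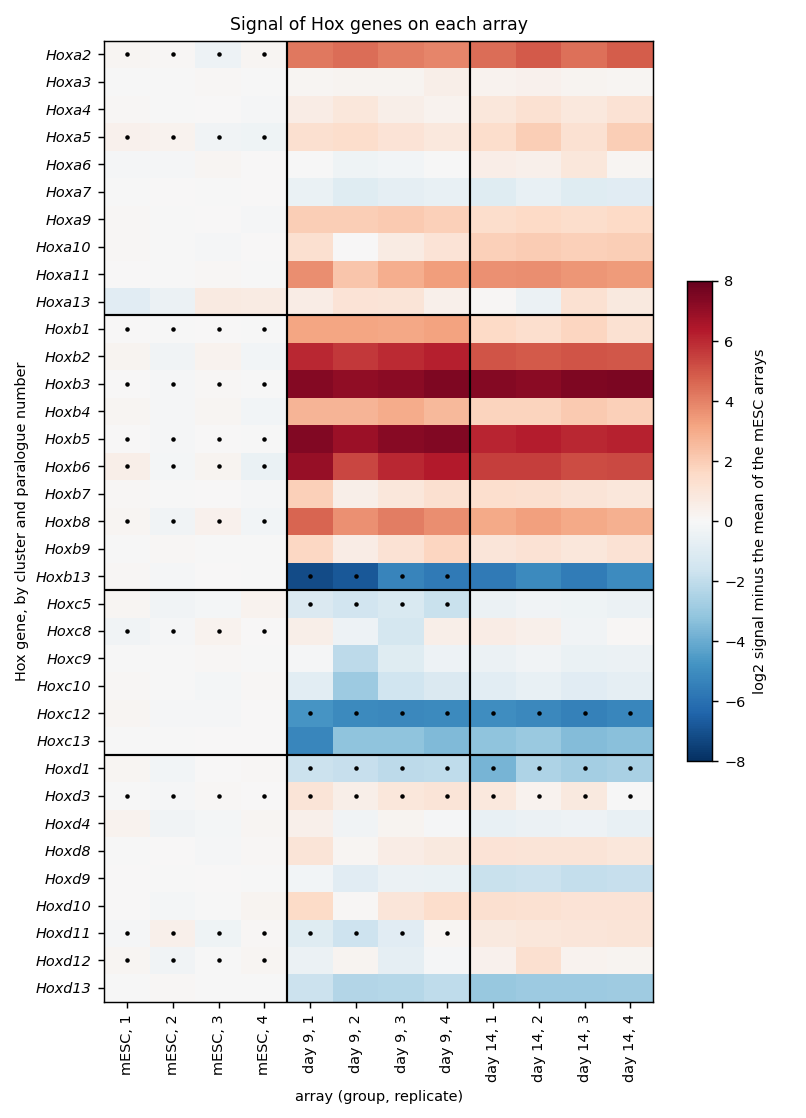
Log2 signal of the Hox genes reported here (rows, by cluster and paralogue number) on each of the 12 arrays (columns), as the difference from the mean of that gene's 4 mESC arrays. Colour runs from −8 (blue) to 8 (red), and a dot marks a gene whose probe was above background on no array of that group. Hoxb1 to Hoxb9 are red at both days, and Hoxb13, Hoxc12, Hoxc13, Hoxd1 and Hoxd13 are blue at both.

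At day 9, 20 of the 34 tested Hox genes had changed against mESC: 13 rose and 7 fell. Of all genes tested, 41.0% were called in this comparison, 20.0% higher and 21.0% lower. The median change of the tested Hox genes was 0.62, and that of all genes was −0.16. At day 14, 24 had changed, of which 17 rose and 7 fell, beside 46.9% of all genes called, 22.8% of all genes higher and 24.1% lower. The medians were 0.97 for the Hox genes and −0.19 for all genes. The 4 arrays of 1 group lay wholly above or below those of mESC in 27 of the 36 Hox genes at day 9 and in 33 at day 14, where 78.6% and 83.9% of all tested genes did so. Both comparisons use the same mESC arrays, so their counts are not independent. Under scaling by each array's median the day 14 split was 12 higher and 9 lower, beside 19.1% and 33.5% of all genes. With normexp, another background correction that pulls dim signals together, 11 were called at day 9 and 10 at day 14, beside 22.8% and 28.0% of all genes, so that the day 14 count was near the share of all genes. In Hoxb 9 of 10 genes rose and 1 fell at both days. With normexp the rises of Hoxb1, Hoxb7 and Hoxb8 were not called at either day, nor those of Hoxb4 and Hoxb9 at day 14. In Hoxa 4 of 11 rose at day 9 and 6 at day 14. No tested Hoxc gene rose: 4 of 5 fell at day 9 and 2 at day 14. In Hoxd 2 of 8 tested genes fell at day 9, and 2 rose and 3 fell at day 14. The median change per cluster, over all members on the array, was 0.76 in Hoxa, 3.59 in Hoxb, −1.53 in Hoxc and −0.27 in Hoxd at day 9, and 1.03, 2.48, −0.60 and 0.45 at day 14. Differences between clusters were not tested.

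**Figure D2:**
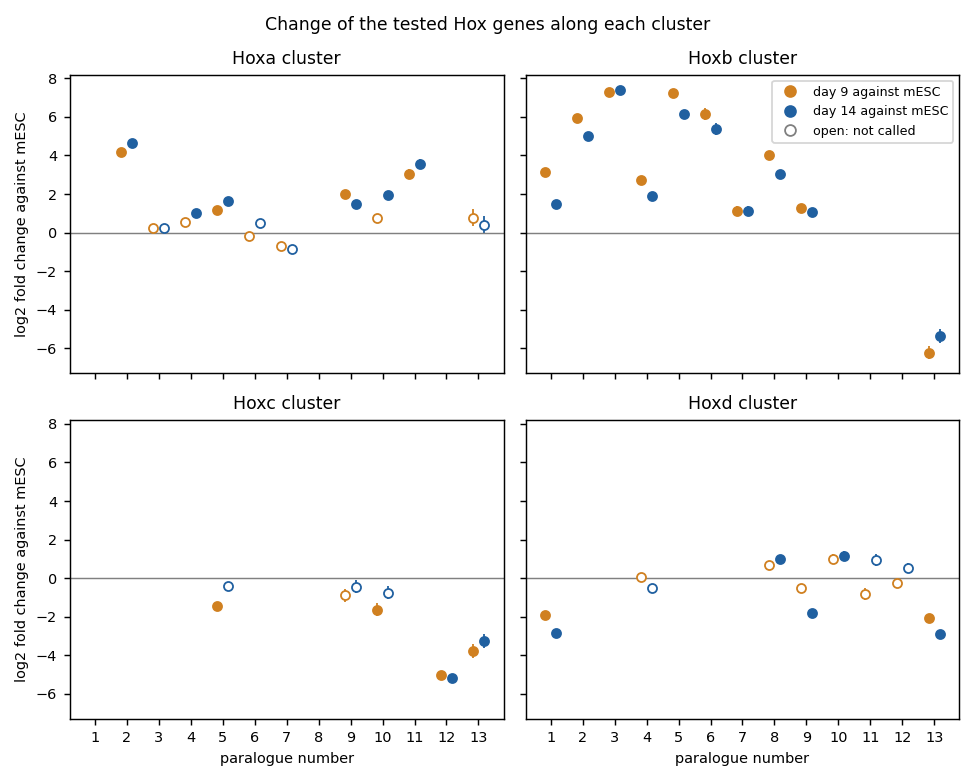
Log2 fold change against mESC (vertical axis) of the tested Hox genes reported here by paralogue number (horizontal axis), with a panel per cluster. Orange points are day 9 and blue points day 14, bars show the SE (n = 4 arrays a group), and open points were not called. In Hoxb every gene from number 1 to 9 lies above 0 and Hoxb13 lies at −6.22 and −5.35.

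Hoxb2, Hoxb3, Hoxb5 and Hoxb6, genes of hindbrain, neck and upper trunk identity, had the largest rises. Hoxb3 lay at −7.63, −7.76, −7.56 and −7.73 on the mESC arrays, where its probe was not above background. It lay at −0.30, −0.59, −0.47 and −0.17 at day 9 and at −0.31, −0.43, −0.21 and −0.11 at day 14. All differentiated arrays were far above all mESC arrays, and the 2 later groups overlapped. Hoxb3 was at least 31.5-fold higher at day 9 and at least 34.1-fold higher at day 14 (limma adjusted p = 9.47e-14 and 7.66e-14; fitted changes 7.28 and 7.40 ± 0.10). A second Hoxb3 probe, above background on 1 mESC array, gave smaller rises of 3.75 and 2.64, so the size depends on the probe.

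Hoxb5, which acts in gut, lung and vascular mesenchyme, had mESC levels of −7.35, −7.46, −7.34 and −7.38, all below background. Its levels were 0.01, −0.52, −0.08 and 0.05 at day 9 and −1.27, −1.08, −1.32 and −1.21 at day 14, so each group stood clear of the others. Hoxb5 was at least 37.4-fold higher at day 9 and at least 17.6-fold higher at day 14 (limma adjusted p = 2.54e-13 and 6.54e-13). From day 9 to day 14 it fell by 1.09 ± 0.11 (limma adjusted p = 7.27e-06), and by 0.75 with normexp background correction, where it was not called. Hoxb6, which patterns the trunk, had mESC levels of −5.63, −6.25, −5.84 and −6.60, below background. At day 9 it was at 0.87, −0.72, −0.06 and 0.26, the widest spread among these 4 genes, and at day 14 at −0.57, −0.53, −0.88 and −0.81. Hoxb6 was at least 43.6-fold higher at day 9 and at least 25.3-fold higher at day 14 (limma adjusted p = 3.17e-09 and 8.85e-09). Day 9 replicate 2 of Hoxb6 lay within the range of the day 14 arrays, and the other 3 lay above it.

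Hoxb2, which acts in hindbrain segments, was above background in every group. Its levels were −2.70, −3.21, −2.63 and −3.17 in mESC, 3.12, 2.74, 3.03 and 3.27 at day 9, and 2.12, 1.96, 2.10 and 2.07 at day 14. It rose by 5.96 ± 0.15 at day 9 and by 4.99 ± 0.15 at day 14 (limma adjusted p = 8.36e-12 and 2.75e-11). Its day 14 arrays all lay below its day 9 arrays, and the difference of −0.97 ± 0.15 missed the size threshold. It passed under median scaling (−1.17), with normexp (−1.05) and without day 9 replicate 2 (−1.07).

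Hoxb1, the earliest gene of its cluster, was at −7.39, −7.47, −7.39 and −7.49 in mESC, below background. At day 9 it was above background on all 4 arrays, at −4.26, −4.30, −4.31 and −4.23. At day 14 it was at −5.82, −6.11, −5.72 and −6.22, above background on 1 array. The day 9 level was at least 2.12-fold that of mESC (limma adjusted p = 5.43e-11; fitted change 3.16 ± 0.10). At day 14 the fitted change was 1.47 ± 0.10 and no fold can be given. Between the days Hoxb1 fell by 1.69 ± 0.10 (limma adjusted p = 7.96e-08). None of these calls held with normexp, where the changes were 0.30, 0.46 and 0.16. Its signal was dim: the mean processed signal was 2.10, 21.5 and 7.77 in the 3 groups.

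Hoxb8, a gene of the trunk that is also known in blood progenitors, was at −7.21, −7.68, −7.00 and −7.59 in mESC, below background. It was at −2.74, −3.73, −3.28 and −3.63 at day 9 and at −4.34, −4.06, −4.35 and −4.54 at day 14. Hoxb8 was at least 4.05-fold higher at day 9 and at least 2.05-fold higher at day 14 (limma adjusted p = 8.49e-09 and 9.05e-08), and with normexp, which gave 0.57 at both days, it was not called. A second Hoxb8 probe was below background on every array, was not tested and showed no rise (means −6.77, −7.29 and −6.89 in mESC, at day 9 and at day 14). The other Hoxb risers were above background in every group. Hoxb4 rose by 2.75 ± 0.11 and 1.90 ± 0.11, Hoxb7 by 1.14 ± 0.24 at both days, and Hoxb9 by 1.30 ± 0.20 and 1.06 ± 0.20. The Hoxb7 call at day 9 was lost without day 9 replicate 1 (0.88), and with normexp the calls of Hoxb7 at both days and of Hoxb4 (0.95) and Hoxb9 (0.80) at day 14 were lost. Median scaling ended the day 14 calls of Hoxb7 (0.82) and Hoxb9 (0.74). A second Hoxb9 probe gave 0.73 and 0.29, neither called.

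**Figure D3:**
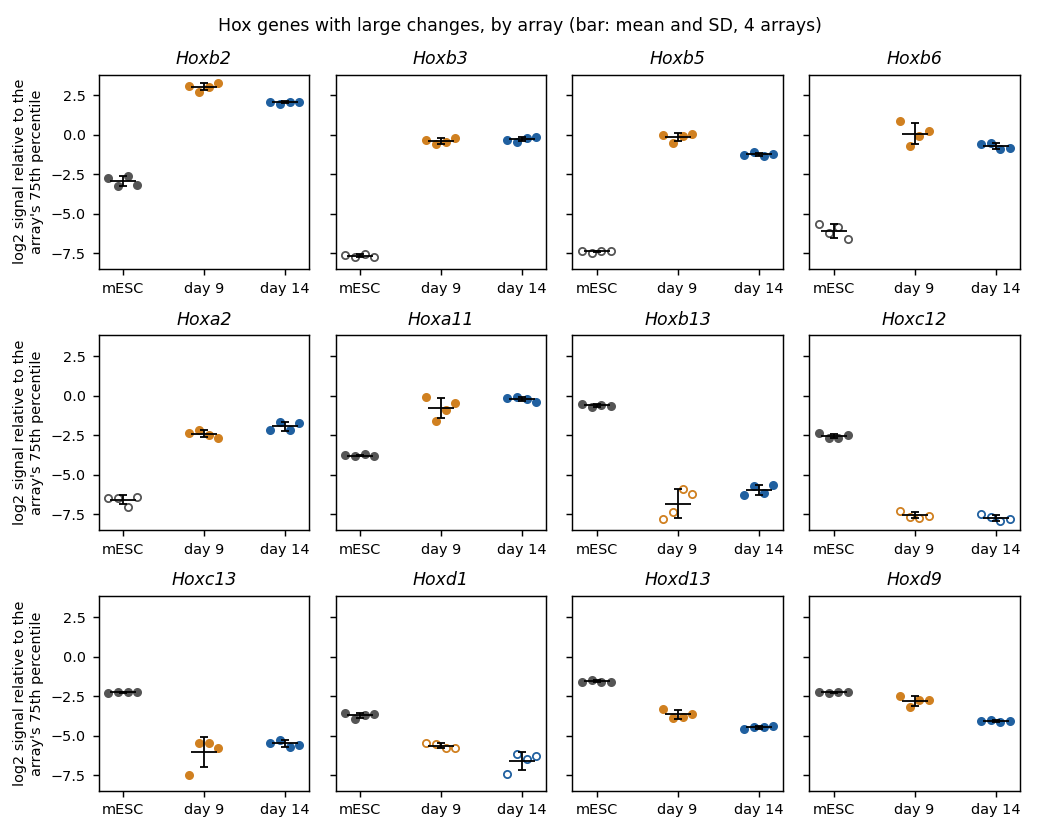
Level of 12 Hox genes (log2 signal relative to the array's 75th percentile) on each array, by group. Points are arrays, black bars the mean and SD of 4 arrays, and open points mark groups in which the probe was above background on no array. The probes shown for Hoxb3 and Hoxb5 go from below background in mESC to between −1.32 and 0.05 later, and Hoxc12 goes below background at both days.

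In Hoxa the largest rises were those of Hoxa2 and Hoxa11. Hoxa2, which patterns the second pharyngeal arch and hindbrain, was at −6.46, −6.48, −7.02 and −6.43 in mESC, below background. It was at −2.35, −2.16, −2.48 and −2.67 at day 9 and at −2.15, −1.69, −2.20 and −1.73 at day 14, so the later groups overlapped. Hoxa2 was at least 7.71-fold higher at day 9 and at least 10.7-fold higher at day 14 (limma adjusted p = 5.77e-10 and 1.83e-10), and with normexp its day 9 change of 0.96 was not called. Hoxa11, a gene of limb, kidney and uterus, was above background throughout, at −3.76, −3.82, −3.71 and −3.84 in mESC. It was at −0.09, −1.60, −0.88 and −0.46 at day 9 and at −0.15, −0.09, −0.23 and −0.38 at day 14. It rose by 3.03 ± 0.25 and 3.57 ± 0.25 (limma adjusted p = 3.28e-07 and 6.21e-08).

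Hoxa10, its neighbour, was at −2.25, −2.39, −2.39 and −2.27 in mESC, and at −1.05, −2.30, −1.66 and −1.24 at day 9. It was at −0.40, −0.29, −0.44 and −0.36 at day 14, above all other arrays. Day 9 replicate 2 lay among the mESC arrays, and the other day 9 arrays lay above them. Hoxa10 rose by 1.95 ± 0.21 at day 14 against mESC and by 1.19 ± 0.21 between the days (limma adjusted p = 3.52e-06 and 0.000488). Without day 9 replicate 2 the change between the days was 0.95, and that at day 9 against mESC was 1.01 and called, against 0.76 with it. Between the days it was also lost with normexp (0.89) and with median scaling (0.9993). Hoxa9, a gene of trunk and blood progenitors, rose by 1.99 ± 0.06 and 1.51 ± 0.06, and with normexp its day 14 change of 0.96 was not called. Hoxa5 rose by 1.16 ± 0.22 and 1.63 ± 0.22 from below background in mESC, at least 1.79-fold and at least 2.49-fold, and was not called with normexp (0.05 and 0.56). Hoxa4 rose at day 14 only, by 1.03 ± 0.13, and the call was lost with normexp (0.63), under quantile normalization (0.82) and median scaling (0.72), and without day 14 replicate 2 (0.97).

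Hoxa3, Hoxa6, Hoxa7 and Hoxa13 were not called, with changes between −0.85 and 0.78 against mESC. A dimmer second probe of Hoxa3, however, gave rises of 1.94 at day 9 and 2.76 at day 14 (limma adjusted p = 3.22e-05 and 1.28e-06). Under median scaling Hoxa7 was called lower at day 14 (−1.17).

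The genes that fell most carry high numbers. Hoxb13, a gene of the tail end and of the prostate, was at −0.51, −0.69, −0.58 and −0.65 in mESC, above background on all 4 arrays. It was at −7.79, −7.39, −5.89 and −6.25 at day 9, below background on all 4, and at −6.26, −5.73, −6.19 and −5.64 at day 14, above it on 2. Hoxb13 was at least 35.3-fold lower at day 9 (limma adjusted p = 1.35e-08; fitted change −6.22 ± 0.36) and fell by 5.35 ± 0.36 at day 14 (limma adjusted p = 4.47e-08). Hoxc12, a gene of hair follicle and limb, was at −2.36, −2.65, −2.66 and −2.49 in mESC. It was at −7.27, −7.65, −7.72 and −7.63 at day 9 and at −7.51, −7.67, −7.94 and −7.78 at day 14, all below background. It was at least 9.27-fold and at least 11.3-fold lower (limma adjusted p = 5.96e-12 and 3.87e-12), and it was not called with normexp (−1.02 and −0.56).

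Hoxc13, a regulator of hair keratins, was at −2.30, −2.26, −2.22 and −2.22 in mESC. It was at −7.49, −5.46, −5.47 and −5.76 at day 9, above background on 2 arrays, and at −5.44, −5.25, −5.74 and −5.58 at day 14, above it on 3. It fell by 3.79 ± 0.37 and 3.25 ± 0.37 (limma adjusted p = 1.67e-06 and 5.99e-06), the day 14 call being lost with normexp (−0.67). Hoxd13, a gene of digits and the genital tubercle, was above background on all arrays by its brighter probe, at −1.59, −1.48, −1.60 and −1.59 in mESC. It was at −3.29, −3.88, −3.82 and −3.61 at day 9 and at −4.59, −4.45, −4.46 and −4.41 at day 14, so the 3 groups stood apart. It fell by 2.09 ± 0.11 and 2.91 ± 0.11 (limma adjusted p = 6.15e-09 and 2.61e-10), and its second probe gave −1.65 and −1.62. The second probe was above background on no day 9 array and on 1 day 14 array. Between the days it gave 0.03, against −0.82 for the brighter probe.

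Of the remaining genes that fell, Hoxd1 has a low number. It was at −3.59, −3.96, −3.69 and −3.65 in mESC and below background on all later arrays, at −5.45, −5.56, −5.81 and −5.76 at day 9 and at −7.42, −6.18, −6.47 and −6.30 at day 14. It was at least 3.79-fold and at least 4.95-fold lower (limma adjusted p = 9.63e-06 and 2.29e-07). With normexp it was not called (−0.42 and −0.01). Hoxd9 was at −2.24, −2.30, −2.25 and −2.27 in mESC, at −2.47, −3.19, −2.76 and −2.78 at day 9, and at −4.07, −4.00, −4.17 and −4.10 at day 14. It fell by 1.82 ± 0.12 at day 14 against mESC and by 1.29 ± 0.12 between the days (limma adjusted p = 3.33e-08 and 3.38e-06), with normexp values of −0.40 and −0.11, neither called. Its second probe gave −1.39 and −0.97, the latter not called.

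Hoxc10, a gene of the lumbar region, was at −2.45, −2.58, −2.70 and −2.46 in mESC, at −3.42, −5.43, −4.15 and −3.72 at day 9 and at −3.36, −3.13, −3.46 and −3.30 at day 14. It fell by 1.63 ± 0.34 at day 9 only (limma adjusted p = 0.000851), with day 9 replicate 2 the lowest array, and was not called with normexp (−0.60). Under median scaling Hoxc10 was also called lower at day 14 (−1.08). Hoxc5 was at −4.57, −4.99, −4.86 and −4.45 in mESC, at −5.88, −6.26, −5.93 and −6.49 at day 9, below background, and at −5.17, −5.01, −5.09 and −5.21 at day 14. It was at least 2.05-fold lower at day 9 (limma adjusted p = 2.95e-06), and with normexp the change was −0.34 and not called. Hoxc9 was not called, at −0.89 ± 0.33 and −0.44 ± 0.33. Its day 9 fall was called under median scaling (−1.02) and without day 9 replicate 1 (−1.16) or 4 (−1.05). In Hoxd, Hoxd8 and Hoxd10 rose at day 14 by 1.01 ± 0.15 and 1.16 ± 0.26. Both calls were lost with normexp, quantile normalization and median scaling, at 0.53 to 0.93, and that of Hoxd8 also when mESC replicate 1 or 3 or day 14 replicate 1 or 2 was left out (0.97 to 0.9993). At day 9 Hoxd10 was just under the size threshold (0.9965). It was called there without mESC replicate 4 (1.06) or day 9 replicate 2 (1.30) or 3 (1.02). Hoxd4, Hoxd11 and Hoxd12 were not called against mESC. Hoxd11 was called lower at day 9 without day 9 replicate 4 (−1.17), and higher at day 14 without mESC replicate 2 (1.06).

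Seen by paralogue number, some numbers held genes that moved alike and others did not. Both genes numbered 2, Hoxa2 and Hoxb2, rose at both days and were not called between them. Of the genes numbered 1, Hoxb1 rose and Hoxd1 fell at both days. Of those numbered 5, Hoxa5 and Hoxb5 rose while Hoxc5 fell at day 9. Of those numbered 9, Hoxa9 and Hoxb9 rose, Hoxd9 fell at day 14 and Hoxc9 was not called. Of those numbered 13, Hoxb13, Hoxc13 and Hoxd13 fell at both days and Hoxa13 was not called at either. Taken as anterior genes (numbers 1 to 3), 4 of 7 tested rose at day 9 and 1 fell. Of central genes (4 to 8) 6 of 12 rose and 1 fell, and of posterior genes (9 to 13) 3 of 15 rose and 5 fell. At day 14 the counts were 4 and 2, 8 and 0, and 5 and 5. Of all genes tested, 20.0% rose and 21.0% fell at day 9, and 22.8% rose and 24.1% fell at day 14. The posterior share of rises at day 9 was thus near that of all genes. With normexp many calls behind these counts were lost. At day 14 they were the central rises of Hoxa4, Hoxa5, Hoxb4, Hoxb7, Hoxb8 and Hoxd8. Also lost were the posterior falls of Hoxc12, Hoxc13 and Hoxd9 and the posterior rises of Hoxa9, Hoxb9 and Hoxd10. Among anterior genes Hoxb1 and Hoxd1 lost theirs. At day 9 the lost calls were those of Hoxa2, Hoxa5, Hoxb1, Hoxb7, Hoxb8, Hoxc5, Hoxc10, Hoxc12 and Hoxd1. Differences between these classes were not tested.

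Between day 9 and day 14 fewer Hox genes were called than against mESC. Of 34 tested, 3 rose and 4 fell, where 13.8% of all genes were called, 10.2% higher and 3.61% lower. The arrays of the 2 days did not overlap in 16 of the 36 Hox genes, against 57.4% of all tested genes. The median was 0.00 for the Hox genes and −0.09 for all genes. The genes that rose were Hoxa10, Hoxc5 and Hoxd11, and those that fell included Hoxb1, Hoxb5 and Hoxd9. Under median scaling 1 rose and 9 fell, where 8.36% and 5.84% of all genes did. Under quantile normalization 2 rose and 7 fell (9.48% and 4.48% of all genes), and without day 9 replicate 2 there were 1 and 7 (10.2% and 3.52%). Hoxc5 was at least 1.55-fold higher at day 14 than at day 9 (fitted change 1.02 ± 0.15, limma adjusted p = 0.000118), which was lost with normexp (0.55), quantile normalization (0.89), median scaling (0.83), and without day 9 replicate 2 or 4 or day 14 replicate 2 (0.90 to 0.98). Hoxd11, a gene of limb and kidney, was at −6.30, −5.80, −6.52 and −6.12 in mESC and at −7.16, −7.82, −7.08 and −6.02 at day 9, all below background. At day 14 it was at −5.39, −5.27, −5.22 and −5.15 and above background on all 4 arrays. It was at least 1.41-fold higher than at day 9 (fitted change 1.76 ± 0.30, limma adjusted p = 0.000401), and with normexp the change was 0.58 and not called. Every Hoxb gene but Hoxb3, Hoxb7 and Hoxb13 was lower at day 14 than at day 9 in its mean. Of these, Hoxb1 and Hoxb5 were called.

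Hox genes had larger SDs between the day 9 arrays than in the other groups, which was not tested. Over the 19 genes whose probe was above background on all 12 arrays, the median SD was 0.30 at day 9, 0.08 in mESC and 0.11 at day 14. Over the 15859 such genes of the whole array it was 0.12, 0.06 and 0.07. Of the 27 Hox genes above background on all day 9 arrays, 18 had their lowest value on replicate 2 and 15 their highest on replicate 1. Replicate 2 was the lowest for 32.9% of all genes and replicate 1 the highest for 24.8%. Hoxc9, picked here for its spread, was at 0.29, −1.71, −0.60 and −0.05, and Hoxb7 at 0.70, −0.75, −0.30 and 0.07, on replicates 1 to 4. Hoxb1 and Hoxa9 hardly varied, with SDs of 0.04 and 0.06. On the same arrays the fibroblast genes summed to 419.5, 239, 304.2 and 401.4 times the 75th percentile, and the cardiomyocyte genes to 156.9, 291.1, 274.9 and 213.9. Replicate 2 was thus lowest in the first sum and highest in the second, and replicate 1 the reverse. Gut and liver genes summed to 38.9, 64.3, 49.0 and 44.6. The part of these cells in the spread was not tested.

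**Figure D4:**
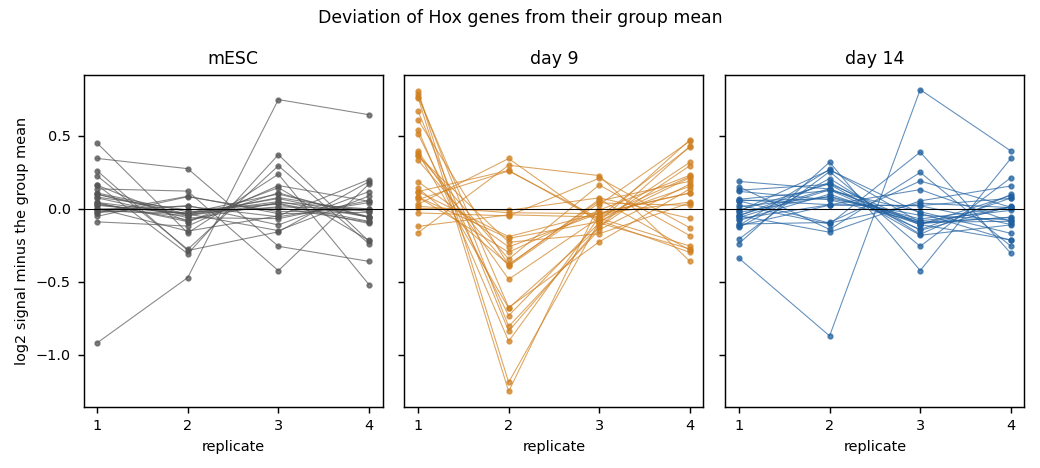
Deviation of the log2 signal from the group mean (vertical axis) on each replicate array (horizontal axis) for the Hox genes above background on all day 9 arrays and reported here, with a panel per group. Lines join the 4 arrays of 1 gene, and replicates have no order. At day 9 most genes are lowest on replicate 2.

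Most genes of the proteins that partner with Hox proteins rose with differentiation. Of the 9 TALE cofactors (Pbx, Meis and Pknox genes) 7 rose and 1 fell at day 9, and 6 rose and 1 fell at day 14. Meis1 rose by 5.25 ± 0.09 and 5.35 ± 0.09, Pbx3 by 3.90 ± 0.04 and 3.19 ± 0.04, and Meis3 by 3.73 ± 0.10 and 2.91 ± 0.10. Meis1 was above background on only 1 mESC array, so the size of its rise is uncertain. Pbx4, known from the testis, fell by 2.08 ± 0.08 and 2.14 ± 0.08. The list's medians were 2.28 and 2.22. This list and those that follow were drawn up from general knowledge. Their counts stand beside 20.0% of all genes higher and 21.0% lower at day 9, and 22.8% higher and 24.1% lower at day 14.

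Genes that make, sense and clear retinoic acid also rose, 5 of 10 tested at day 9 and 6 at day 14, with 1 fall at day 9. Rarb, a receptor that retinoic acid itself induces, rose by 6.65 ± 0.06 and 6.76 ± 0.06. The synthesising enzyme Aldh1a2 rose by 2.44 ± 0.10 and 4.89 ± 0.10, and by 2.45 ± 0.10 between the days. The degrading enzymes Cyp26b1 and Cyp26a1 rose by 3.45 ± 0.07 and 2.83 ± 0.13 at day 9 and by 4.58 ± 0.07 and 3.15 ± 0.13 at day 14. Crabp2, which carries retinoic acid to its receptors, was at least 4.57-fold and at least 4.43-fold higher. The receptor Rarg fell by 1.19 ± 0.16 at day 9 only. Between the days 3 genes of the list rose, and Dhrs3, a retinaldehyde reductase, rose by 2.82 ± 0.04.

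Of 11 tested regulators of axial identity, 4 rose and 3 fell at day 9, and 4 rose and 2 fell at day 14. The list's medians were 0.31 and −0.32. Cdx2, which activates trunk Hox genes and is also a gut gene, was at least 45.7-fold higher at day 9 and at least 11.4-fold higher at day 14, and fell by 2.00 ± 0.10 between the days. Its relative Cdx1 was at least 7.21-fold and at least 8.77-fold lower, and Cdx4 was below background in every group. Egr2, which drives Hoxa2 and Hoxb2 in the hindbrain, rose by 1.70 ± 0.12 and 4.66 ± 0.12, from above background on only 1 mESC array. Gdf11, a ligand that turns on posterior Hox genes, was at least 2.29-fold and at least 2.47-fold higher. Nr6a1, a nuclear receptor of trunk development, fell by 1.36 ± 0.10 and 3.34 ± 0.10.

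Of 11 tested chromatin regulators of the clusters none was called higher against mESC: 3 fell at day 9 and 4 at day 14. Among all genes tested, 21.0% fell at day 9 and 24.1% at day 14. The list's medians were −0.04 and −0.50. Cbx7, a Polycomb subunit of stem cells, fell by 2.95 ± 0.05 and 3.90 ± 0.05, and Eed, a core subunit of the complex that methylates histone H3, by 1.96 ± 0.05 and 2.33 ± 0.05. Suz12, of the same complex, fell by 1.66 ± 0.06 and 1.79 ± 0.06, and its catalytic subunit Ezh2 by 1.29 ± 0.04 at day 14. Of 7 tested homeobox genes beside or related to the clusters, 2 rose and 2 fell at day 9, and 3 rose and 2 fell at day 14. Evx1, next to Hoxa13, was at least 6.12-fold and at least 4.09-fold higher, and Meox1 at least 27.2-fold and at least 20.8-fold higher. Meox2 was at least 18.2-fold higher at day 14 than in mESC. Gbx2 fell by 2.54 ± 0.15 and 3.09 ± 0.15 and Gsx2 by 3.05 ± 0.42 and 2.43 ± 0.42. Gsx2 was above background on 2 arrays at day 9 and on 3 at day 14. Of the noncoding genes of the clusters, Hottip was below background on every array and Hoxd3os1 was not called, at 1.16 ± 0.55 and 1.07 ± 0.55.

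**Figure D5:**
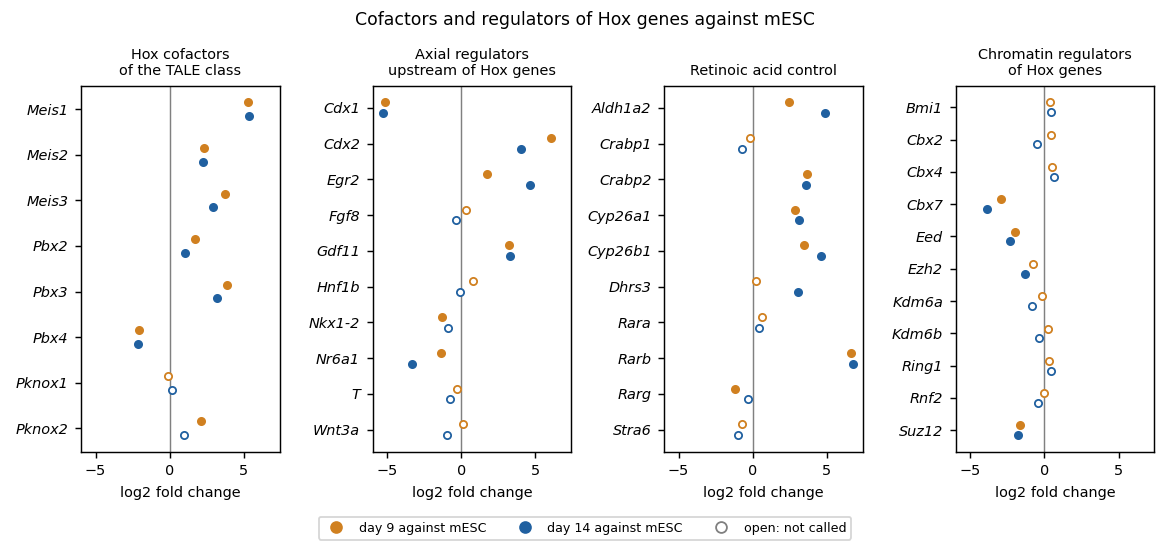
Log2 fold change against mESC (horizontal axis) of tested genes of 4 lists: TALE cofactors, axial regulators, retinoic acid genes and chromatin regulators. Orange points are day 9, blue points day 14, bars show the SE (n = 4 arrays a group, many narrower than the point), and open points were not called. Most cofactors lie right of 0, with Pbx4 at −2.08 and −2.14 on the left.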

How the data were processed

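Total RNA of 12 samples was labelled with Cy3 and read on 1-colour Agilent arrays. Per the file headers and the submitters' processing notes, Agilent Feature Extraction 12 made the deposited processed signal, an intensity on a linear scale, with the background subtracted and no scaling across arrays. Further deposited columns, a spot's median signal and its local background, are uncorrected intensities per the file headers, and the deposited flags hold 0 or 1.

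Control spots and outlier spots were left out, spots of a probe averaged, and log2 signals reduced by each array's 75th percentile. Of 41174 probes, 28223 were named by RefSeq accession (GRCm38.p6 annotation). Probes were tested if well above background on at least 3 of 4 arrays of a group (28385). Each gene was represented by its brightest tested probe. Differences were tested, two-sided, with limma 3.58.1 in R 4.3.3 over all 12 arrays, with Benjamini-Hochberg adjustment over 20875 genes. The fit was tested on simulated data. The number of arrays limits the precision.

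The members, lists and tests were chosen with earlier results of these data known. Values are given for every called Hox gene, array by array for the up to 8 with the largest change in each direction, and for up to 4 called genes of each list with the largest changes in a comparison, of which some are left out or not reported here. Pbx4 and Rarg were named after their values were seen, as the falls of their lists. Replicate numbers were not treated as pairs. Alternatives were background correction by normexp (offset 50), normalization by quantiles or to each array's median, the values of the series table, no filter, a stricter filter, other treatments of several probes, only the arrays compared, robust variances, a replicate block, and each array left out in turn.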

Additional observations from a re-analysis of the deposited data

Results flagged for a closer look

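In 5 of 108 groups of 4 arrays, 1 array of a Hox gene stood apart from the other 3 by a gap that Dixon's test flags, as chance does in about 1 in 20 groups. Hoxa2 was at −7.02 on mESC replicate 3, against −6.48 to −6.43 on the others, all below background. Hoxa7 was at −0.44 on day 14 replicate 2, against −0.82 to −0.77. Hoxc13 was at −7.49 on day 9 replicate 1, against −5.76 to −5.46, with 2 of the 4 arrays above background. Hoxd12 was at −4.38 on day 14 replicate 2, against −5.44 to −5.33. Hoxd13 was at −1.48 on mESC replicate 2, against −1.60 to −1.59.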

How the results depend on the processing

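Against mESC, 20 Hox genes were called at day 9 and 24 at day 14, and 7 were called between the days. With normexp background correction these counts were 11, 10 and 1 of 34, beside 22.8%, 28.0% and 5.90% of all genes, and the gene called between the days was Hoxb2, not one of the 7. With only probes above background on all 12 arrays, 19 Hox genes were tested and the counts were 8, 13 and 3, beside 34.5%, 40.5% and 8.21% of all genes. Leaving out 1 array at a time gave 20 to 22, 22 to 25 and 7 to 9. The remaining alternatives stayed within 1.5 times the count, with the splits by direction given above. Normexp with its offset pulls dim signals together by construction, and the cause of each lost call was not tested. Over single Hox genes, 2126 changes under an alternative kept their call or stayed uncalled, 54 lost a call and 35 gained one. Another 2, called either in the main fit or under the alternative, changed direction. They were Hoxb1 between the days with normexp (0.16) and Hoxb3 between the days on its second probe (−1.12). Small changes called in neither fit could change sign and still count among the 2126. The 2126 also include changes that could hardly differ. The series table held the same values as the main fit. Leaving out an array of the group not compared left the log2 change itself unmoved. The median change of all genes moved with the scaling: against −0.16, −0.19 and −0.09, median scaling gave −0.29, −0.51 and −0.28. Samples of the same replicate number showed little shared deviation (correlations from −0.075 to 0.184, over 0.1 in 1 of 12 pairs). Such correlations cannot show whether equal numbers share a culture or a day. The replicate block gave 20, 24 and 7.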
